A study of Mus musculus with 24 samples.

Results

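A set of 10 monocyte and macrophage effector genes was followed through mouse leukemia cell cultures: Lyz1, Lyz2, Mpeg1, Ly6c2, Msr1, Cd36, Mrc1, Cd68, Gpnmb and Mmp12. They were chosen by gene symbol, as 10 of 25165 distinct symbols in 4 deposited RNA-seq tables, and every table held all 10. The series measured 24 libraries in 8 groups of 3. It asked which genes depend on leukemia fusion genes and which genes JAK1 regulates. All cells came from C57BL/6 bone marrow and were kept in culture with the cytokines SCF, IL3 and IL6.

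The groups were as follows. Cells with an inducible CALM-AF10 fusion (iCALM_AF10) were compared with the fusion off and on. Cells with inducible MLL-AF10 (iMLL_AF10) or MLL-AF9 (iMLL_AF9) were compared after doxycycline (DOX) and after the vehicle DMSO. The genotype of these inducible cells is given as wild type, apart from the fusion. Jak1 null cells (genotype Jak1 deleted, by Cre-ER activated with 4-OHT) were compared with Jak1 floxed cells, and both of these groups carried CALM-AF10. The columns taken as the floxed group are named DMSO. Effects of the deletion, of 4-OHT and of active Cre-ER therefore cannot be told apart. PolyA RNA was sequenced in 3 experiments and total RNA in MLL-AF9. In the CALM-AF10 table the columns are named off and on, whereas the labels name DMSO and DOX, with nothing to tie these names together. For the MLL models the library titles name DOX and DMSO without saying which of them goes with the fusion off. The sources used here give no drug dose, no treatment time, no deleted Jak1 exon and no word on whether each model is 1 clone. The labels do not say whether libraries within a group are separate cultures. The p-values below therefore reflect variation among libraries, part or all of which may be technical.

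Macrophages and their monocyte precursors take up and destroy microbes, dying cells and modified lipids. Scavenger and mannose receptors (Msr1, Cd36, Mrc1) bind the cargo at the surface. Lysozyme (Lyz1, Lyz2) and the pore-forming perforin-2 (Mpeg1) attack bacteria, and the membrane glycoproteins of lysosomes and related compartments (Cd68, Gpnmb) mark the digesting cell. Mmp12 is the macrophage metalloelastase, secreted to cut elastin, and Ly6c2 encodes a surface antigen by which classical monocytes are recognised in the mouse. Myeloid leukemia cells are arrested short of these mature states, and MLL and CALM fusions hold progenitors in a self-renewing program.

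Across the series, total counts per library were 12130633 to 37445525 with CALM-AF10 off and 24448224 to 40187404 with it on, and 12264344 to 12855096 in Jak1 null and 11743388 to 13764632 in Jak1 floxed cells. Depth is unknown for the MLL tables, which hold log2 values and FPKM (fragments per kilobase of transcript, scaled to library size). The 5′ partner locus of each fusion was lower in its model: Picalm, the CALM gene, by a log2 fold change of −0.78 with CALM-AF10 off, and Kmt2a, the MLL gene, by −0.59 in MLL-AF10 and −1.16 in MLL-AF9 with DOX. The AF10 gene Mllt10 was lower by −0.48 with CALM-AF10 off and −0.34 with MLL-AF10 DOX, and the AF9 gene Mllt3 did not pass in MLL-AF9 (−0.33, limma adjusted p = 0.378). Picalm was also lower in Jak1 null cells (−0.51, edgeR adjusted p = 5.32e-15). Jak1 itself was lower by −0.32 in null cells, but without the deleted exons its total count is no check of the deletion. The leukocyte gene Ptprc (CD45) was detected in every library. Of 7 B cell markers, Ms4a1 and Pax5 were at or near 0 in all 3 tables with linear values, as were Hba-a1 and Alas2 of 7 erythroid markers. Other markers were detected in inducible CALM-AF10 cells. There the B cell list summed to 5.26 to 5.89 CPM (counts scaled to library size) off and 5.9 to 6.69 on. The erythroid list summed to 17.2 to 20.9 CPM off and 17.9 to 20.6 on. The 9 T and NK cell markers summed to 101 to 119 CPM off and 105 to 111 on. In Jak1 null cells the T and NK list summed to 11.2 to 12.2 CPM and the erythroid list to 0.7 to 1.88. In floxed cells these were 8.0 to 9.08 and 1.11 to 1.53.

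Each table was tested on its own 6 libraries, with edgeR for counts and limma for log2 and FPKM values, and a gene was called at an adjusted p under 0.05 over all genes tested. Fold changes are log2 values, positive where the off, DOX or null group was higher. Values are mean ± SD with n = 3 libraries a group, and counts are scaled by library size (TMM). How the MLL-AF10 log2 values were made is not stated and their differences are probably shrunken, and folds on log2(FPKM + 1) understate low genes. Sizes are therefore not compared between tables, and no difference between experiments was tested.

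With CALM-AF10 off, 2 of the 10 genes rose (Lyz1 and Lyz2), 1 fell (Mmp12) and 7 did not pass the test, where 5.24% of all genes passed, 2.13% upward and 3.11% downward. With DOX in MLL-AF10 cells, Msr1, Cd68, Mrc1, Mpeg1, Lyz2 and Ly6c2 rose, Mmp12 fell and Gpnmb did not pass. These are 7 calls among 8 genes tested, where 19.8% of all genes were called (10.6% higher, 9.17% lower), since Cd36 and Lyz1 lay under the minimum level. With DOX in MLL-AF9 cells, Msr1, Gpnmb, Mpeg1, Lyz2, Ly6c2 and Mmp12 rose, none fell and 4 did not pass, against 11.8% of all genes called (7.23% higher, 4.54% lower). In Jak1 null cells, Msr1, Mrc1, Mpeg1, Lyz1 and Lyz2 rose, Cd36, Cd68, Gpnmb and Mmp12 fell, and Ly6c2 did not pass. That last table called 55.7% of all genes (27.4% higher, 28.3% lower), so 9 calls of 10 stand over a high background.

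**Figure D1:**
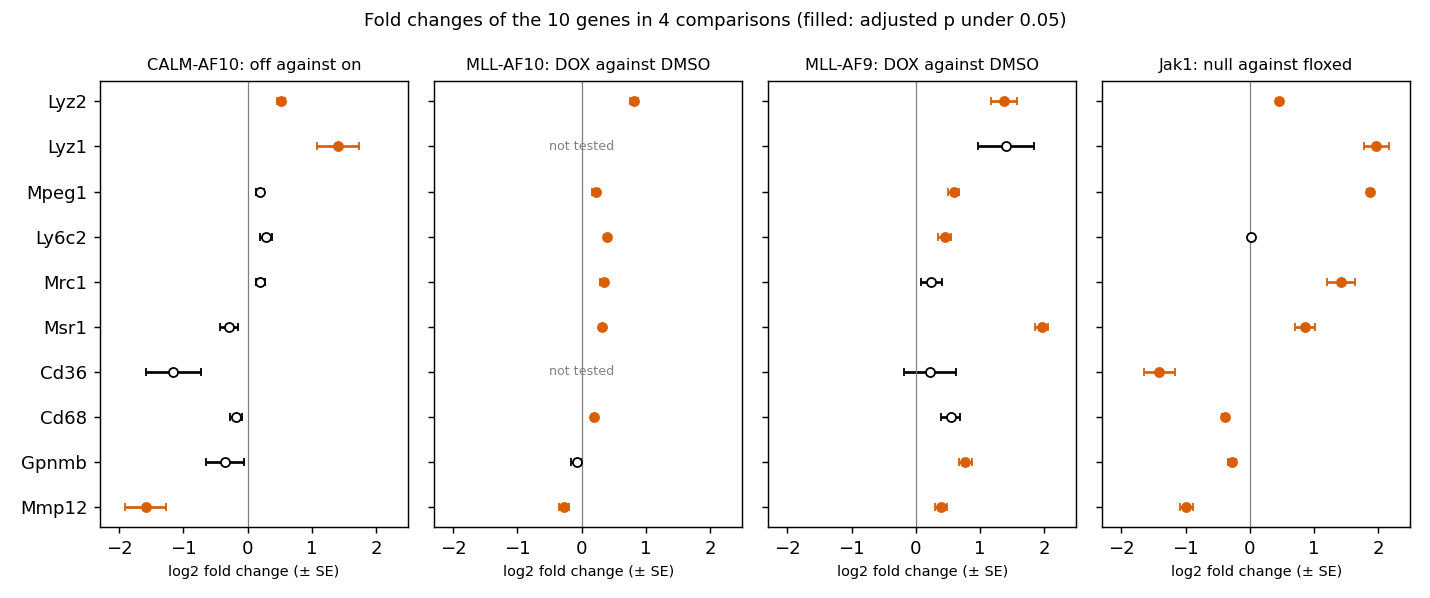
Log2 fold change (x axis, with its standard error) of each gene (y axis) in the 4 comparisons, filled orange where called and open where not. Lyz2 lies right of 0 in every panel, and Mmp12 lies left of 0 in all but MLL-AF9.

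Groups without overlap were seen for 4 higher genes and 1 lower gene with CALM-AF10 off, where 14.4% of all genes were higher and 15.5% lower in this way (30% in all). They were seen for 6 higher genes of 8 in MLL-AF10, against 19.3% higher and 17% lower of all genes (36.3% in all), and for 8 higher genes of 10 in MLL-AF9, against 17.2% and 16.8% (34% in all). In Jak1 null cells 5 genes were higher and 4 lower without overlap, against 30.2% and 30.5% of all genes (60.8% in all).

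The median log2 fold change of the 10 genes was 0.01 with CALM-AF10 off and 0.56 with MLL-AF9 DOX, where the medians of all genes were −0.003 and −0.016. It was 0.27 over the 8 genes tested in MLL-AF10, against 0.001 for all genes, and 0.24 in Jak1 null cells, against 0.008. Lyz2 was called higher in 4 of 4 comparisons, Msr1 and Mpeg1 in 3, and Mrc1, Lyz1 and Ly6c2 in 2. Mmp12 was called lower in 3 and higher in 1. Leaving out 1 library changed the number of genes called: 1 remained with CALM-AF10 without on replicate 2 and also without on replicate 3, and Lyz2 was that gene both times.

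**Figure D2:**
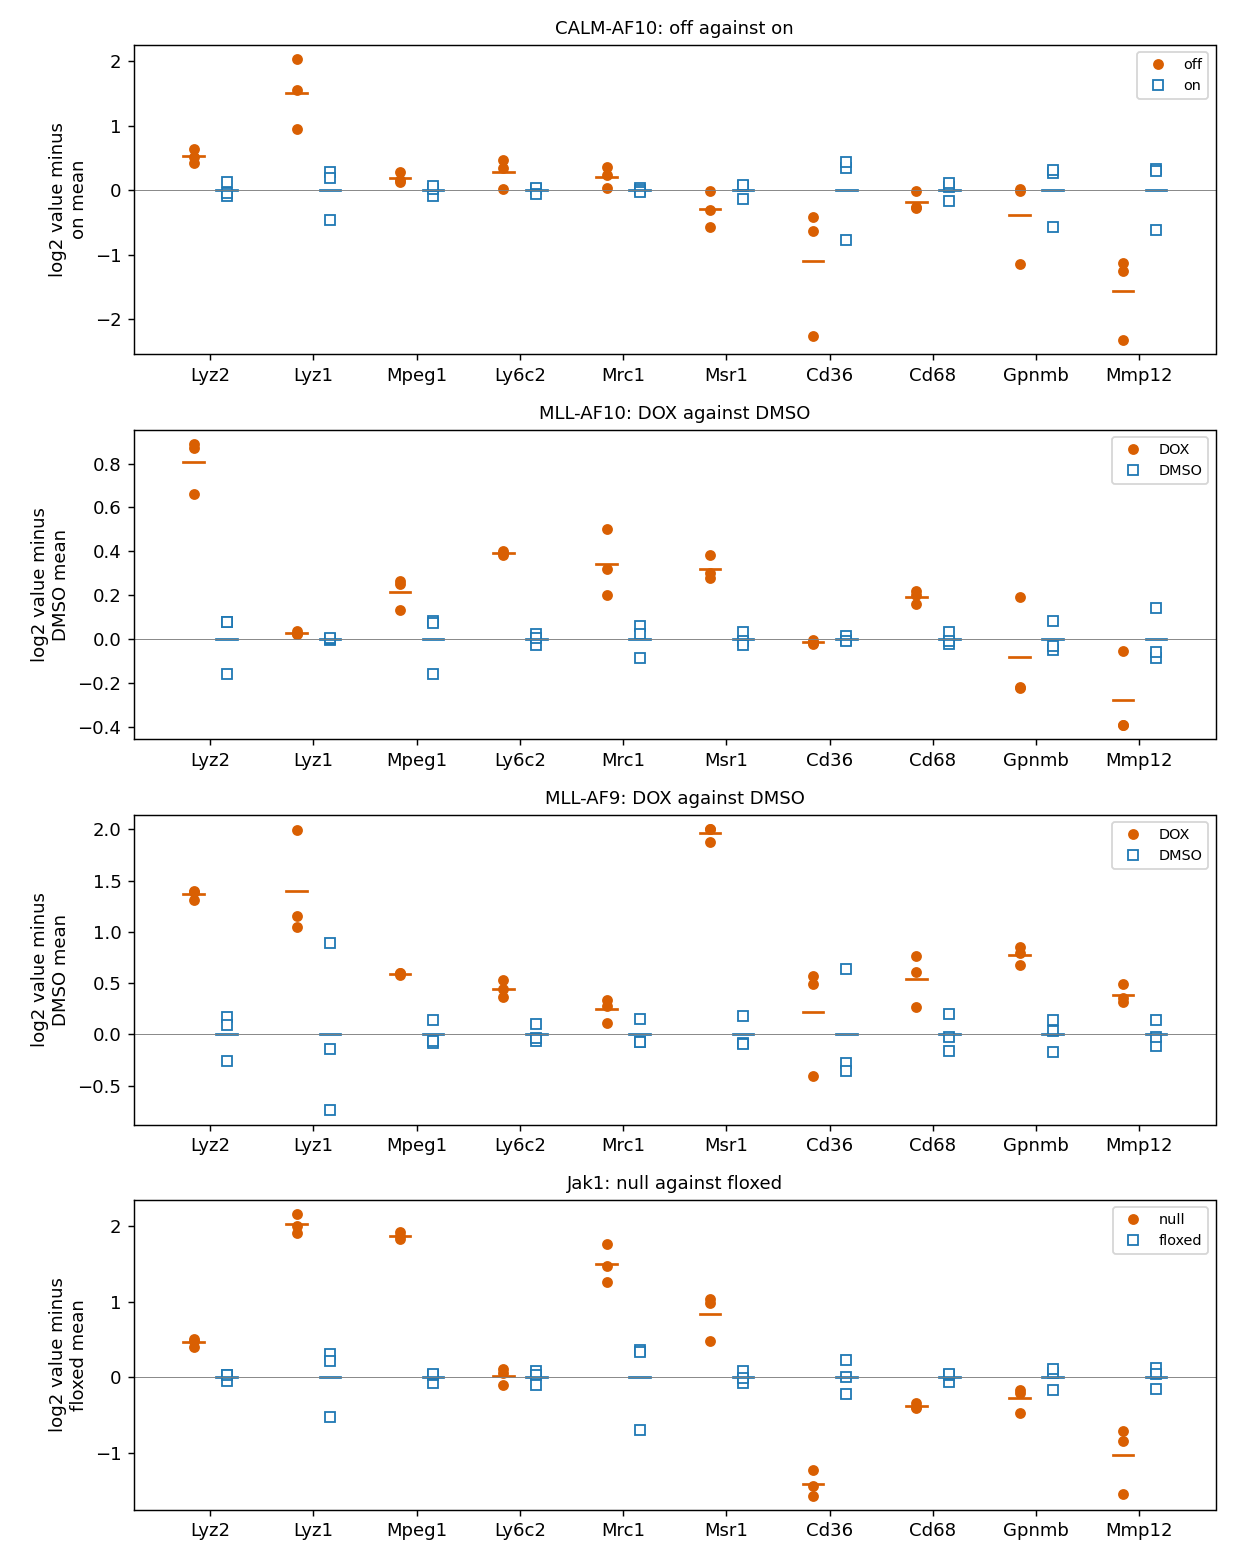
Each point is 1 library: the log2 level of a gene minus the mean of the group drawn on the right (on, DMSO or floxed, open squares), with the off, DOX or null libraries as filled circles on the left and short bars for group means. Counts and log2 values are plotted as they stand and FPKM as log2(FPKM + 1). The 3 null libraries lie below the floxed ones for Cd36, Cd68, Gpnmb and Mmp12.

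The lysozymes come first. Lyz1 and Lyz2 are neighbouring copies on chromosome 10, on the minus strand, at chr10:116724852-116729924 and chr10:116714390-116719377 in mm9. Lyz2 is the lysozyme of macrophages and neutrophils in the mouse, and Lyz1 is best known from intestinal Paneth cells. Their coding sequences were identical at 425 of 447 bases (95.1%), and 195 of the 1264 windows of 50 bases in the Lyz2 transcript also occur in Lyz1. How the authors' counting divided reads between such copies is not given, so Lyz1 levels are uncertain. The 250 bases before each start, from RefSeq on GRCm38.p6, are shown because both genes rose together in 2 tables; 200 of 248 aligned bases were identical (80.6%). Capitals mark words of known myeloid factors found on either strand; the words searched are listed with the Mmp12 promoters. Lyz1 is at chr10:117292869-117293118 and Lyz2 at chr10:117282273-117282522, both minus strand.
Lyz1: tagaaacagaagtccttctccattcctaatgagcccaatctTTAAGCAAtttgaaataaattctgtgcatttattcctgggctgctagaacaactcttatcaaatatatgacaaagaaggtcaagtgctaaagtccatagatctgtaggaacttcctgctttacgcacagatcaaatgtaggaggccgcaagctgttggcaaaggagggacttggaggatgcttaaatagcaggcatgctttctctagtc
Lyz2: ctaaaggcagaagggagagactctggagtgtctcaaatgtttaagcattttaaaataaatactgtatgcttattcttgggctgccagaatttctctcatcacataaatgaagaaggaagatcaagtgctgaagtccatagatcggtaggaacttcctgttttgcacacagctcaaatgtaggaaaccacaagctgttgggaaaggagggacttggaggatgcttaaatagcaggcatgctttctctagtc

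Lyz2 had 54070, 57070 and 62320 normalized counts with CALM-AF10 off, against 43950, 37780 and 39100 with it on. The lowest off library was above the highest on library, and the log2 fold change was 0.52 (SE 0.0688, edgeR adjusted p = 0.0037). In MLL-AF10 cells the log2 values were 14.13, 14.34 and 14.36 with DOX, against 13.31, 13.55 and 13.55 with DMSO, again without overlap, a difference of 0.81 (SE 0.0626, limma adjusted p = 6.33e-07). In MLL-AF9 cells Lyz2 reached 11460, 12130 and 12060 FPKM with DOX, against 5186, 3842 and 4919 FPKM with DMSO. Every DOX library was above every DMSO library, with a log2 fold change of 1.37 (SE 0.203, limma adjusted p = 0.00639). The mean FPKM with DOX was 2.56 times that with DMSO. Jak1 null cells had 22680, 23100 and 21590 normalized counts, against 16570, 15690 and 16660 in floxed cells, a log2 fold change of 0.46 (SE 0.0315, edgeR adjusted p = 1.38e-13). These are bulk libraries, in which fewer cells of a type and less RNA per cell cannot be told apart.

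Lyz1 was far scarcer. It had 27.79, 42.21 and 59.25 normalized counts with CALM-AF10 off, against 10.44, 17.56 and 16.37 with it on, a log2 fold change of 1.40 (SE 0.327, edgeR adjusted p = 0.0409). The groups did not overlap, but the call was lost without off replicate 2 or without any 1 of the 3 on libraries (adjusted p = 0.107 to 0.136, and 0.00787 to 0.136 over all alternatives). With Jak1 deleted there were 74.51, 88.66 and 79.4 counts of Lyz1 in null cells, against 24.59, 22.86 and 13.78 in floxed cells, a log2 fold change of 1.97 (SE 0.201, edgeR adjusted p = 9.91e-10). The rise was 3.96-fold, where Lyz2 rose 1.38-fold in the same libraries. In MLL-AF9 cells Lyz1 had 5.084, 10.76 and 5.575 FPKM with DOX, against 0.7649, 1.668 and 4.474 FPKM with DMSO. The groups stood apart, yet the spread among DMSO libraries was wide and the test was not passed (1.40, limma adjusted p = 0.0846). Without DMSO replicate 3 it was called (1.84, adjusted p = 0.0353, and 0.0353 to 0.209 over the alternatives).

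The share of Lyz1 in the sum of both lysozymes does not depend on library scaling. It was 0.327%, 0.382% and 0.366% in Jak1 null libraries, against 0.148%, 0.146% and 0.0826% in floxed libraries, or 0.359% ± 0.0283 and 0.125% ± 0.0371 (SD, n = 3 each; exact permutation test, two-sided p = 0.1, the smallest that 3 against 3 libraries allow). With CALM-AF10 off it was 0.0734% ± 0.0218, against 0.0374% ± 0.012 with it on (exact p = 0.1, n = 3 each). In MLL-AF9 the shares overlapped, at 0.0597% ± 0.025 with DOX and 0.0497% ± 0.0384 with DMSO (exact p = 0.7, n = 3 each). Lyz1 thus made up under 1 in 100 lysozyme reads in each library of these 3 tables.

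**Figure D3:**
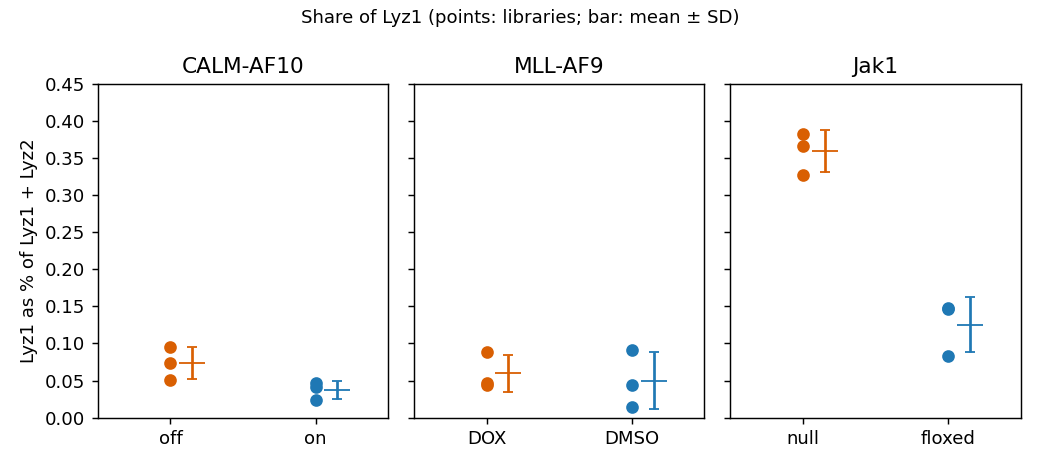
Lyz1 as a percentage of Lyz1 plus Lyz2 (y axis), 1 point per library, with the mean and SD beside the points. The 3 Jak1 null libraries lie between 0.327% and 0.382%, above the 3 floxed libraries.

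Mpeg1, at chr19:12535269-12539774 (mm9, plus strand), encodes perforin-2, which forms pores in engulfed bacteria. In Jak1 null cells it had 3647, 3805 and 3542 normalized counts, against 946.3, 1022 and 1029 in floxed cells. The groups were far apart relative to their spread, at a log2 fold change of 1.87 (SE 0.0406, 3.67-fold, edgeR adjusted p = 4.84e-26). In MLL-AF9 cells the values were 162, 159.5 and 162.1 FPKM with DOX, against 118, 100.9 and 102.2 FPKM with DMSO, also without overlap (0.59, limma adjusted p = 0.00488). MLL-AF10 cells had log2 values of 12.13, 12.25 and 12.26 with DOX, against 11.84, 12.08 and 12.07 with DMSO. This difference of 0.22 (limma adjusted p = 0.0117) was not called without DOX replicate 2 or without DOX replicate 3 (adjusted p = 0.061 each). That was the highest adjusted p over all alternatives. The lowest, 4.77e-14, came from the limma fit with a replicate block, and replicate 1 was the lowest library of each group. With CALM-AF10 off Mpeg1 had 10460, 11630 and 10620 counts, against 9005, 9706 and 10050 with it on; the groups did not overlap, as for 30% of all genes, and the test was not passed (0.19, edgeR adjusted p = 0.102).

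Ly6c2, at chr15:74938590-74942114 (mm9, minus strand), lies near its copy Ly6c1, whose coding sequence was identical at 97.7% of 396 bases. Reads may be divided between them in a way the sources used here do not give. Ly6c1 itself was low, at 14.89 ± 2.3 normalized counts in Jak1 null and 8.366 ± 1.7 in floxed cells, whereas Ly6c2 had 30640 ± 2260 in null and 30290 ± 1990 in floxed cells. Ly6c2 rose in MLL-AF10 cells, at log2 values of 12.54, 12.53 and 12.55 with DOX, against 12.17, 12.12 and 12.15 with DMSO. The libraries of each group lay within a narrow band and the difference was 0.40 (SE 0.0271, limma adjusted p = 1.72e-07). In MLL-AF9 cells it had 1525, 1611 and 1717 FPKM with DOX, against 1135, 1155 and 1270 FPKM with DMSO (0.45, limma adjusted p = 0.0347). The groups did not overlap, but the call was lost on leaving out any 1 of the 6 libraries (adjusted p = 0.0564 to 0.118, and 0.0302 to 0.235 over all alternatives). Ly6c2 had 14310, 13030 and 10470 counts with CALM-AF10 off, against 10430, 10600 and 9946 with it on, and these overlapped (0.29, edgeR adjusted p = 0.115). In the Jak1 table the log2 fold change was 0.02 (edgeR adjusted p = 0.759), and its sign turned without null replicate 1 (−0.025) and without floxed replicate 3 (−0.035).

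The RefSeq table gives Ly6c2 a pair of overlapping start sites. The 250 bases before the downstream one, chr15:75111938-75112187 on the minus strand of GRCm38.p6, are shown because they hold the PU.1 word GAGGAAGT at 2 places, −142 to −135 and −8 to −1 relative to the start. Of all 32851 promoter windows of that length, 2.44% hold this word on either strand.
Ly6c2: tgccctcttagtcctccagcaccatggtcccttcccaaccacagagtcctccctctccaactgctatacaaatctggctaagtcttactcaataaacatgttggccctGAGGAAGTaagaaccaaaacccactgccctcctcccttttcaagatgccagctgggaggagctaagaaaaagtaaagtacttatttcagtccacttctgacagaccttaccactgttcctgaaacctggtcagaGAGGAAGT

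Among the uptake receptors, Msr1 encodes the class A scavenger receptor for modified lipoproteins and bacterial surfaces (chr8:40667054-40728032, mm9, minus strand). It had 67.44, 61.67 and 67.38 FPKM with DOX in MLL-AF9 cells, against 18.31, 15.06 and 15.02 FPKM with DMSO. The mean FPKM with DOX was 4.06 times that with DMSO, and the log2 fold change, on log2(FPKM + 1), was 1.96 (SE 0.102, limma adjusted p = 8.58e-05). Normalized counts were 80.64, 114.3 and 118.1 in Jak1 null cells, against 60.95, 54.86 and 57.23 in floxed cells, with null replicate 1 the lowest of its group and still above every floxed library (0.86, edgeR adjusted p = 2.25e-05). In MLL-AF10 cells the log2 values were 7.782, 7.676 and 7.699 with DOX, against 7.433, 7.392 and 7.372 with DMSO (0.32, limma adjusted p = 3.12e-05). With CALM-AF10 off Msr1 had 151.3, 223.3 and 182.5 counts, against 205.8, 235.2 and 237.1 with it on. These ranges overlapped and the gene was not called (−0.29, edgeR adjusted p = 0.287).

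Mrc1 encodes the mannose receptor CD206, a C-type lectin for mannosylated glycoproteins (chr2:14151041-14253684, mm9, plus strand). It had 58.18, 82.75 and 67.78 normalized counts in Jak1 null cells, against 14.97, 31.09 and 30.73 in floxed cells, a 2.72-fold rise without overlap (log2 fold change 1.42, SE 0.215, edgeR adjusted p = 1.65e-06). In MLL-AF10 cells the log2 values were 7.354, 7.172 and 7.055 with DOX, against 6.911, 6.767 and 6.877 with DMSO (0.34, limma adjusted p = 0.000985). With CALM-AF10 off it had 1398, 1617 and 1749 counts, against 1394, 1375 and 1339 with it on. Off replicate 1 sat at the level of the on libraries, and the gene was called only without that library (0.30, adjusted p = 0.0308) and not with all 6 (0.20, edgeR adjusted p = 0.158); over the alternatives the adjusted p ran to 0.368. In MLL-AF9 cells Mrc1 was low, at 4.156 ± 0.404 FPKM with DOX and 3.356 ± 0.396 FPKM with DMSO, and overlapped (0.24, limma adjusted p = 0.386).

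Cd36 encodes a receptor for fatty acids and oxidised lipoproteins (chr5:17287508-17394777, mm9, minus strand). It was low throughout. Jak1 null cells had 13.27, 16.75 and 14.53 normalized counts, against 45.98, 39.32 and 33.91 in floxed cells, so it fell to 0.374 times the floxed mean (log2 fold change −1.41, SE 0.245, edgeR adjusted p = 1.38e-05). With CALM-AF10 off the values were 26.24, 81.61 and 94.8, against 74.15, 160.3 and 170.9 with it on. Replicate 1 was the lowest of each group, the groups overlapped, and the test was not passed (−1.16, SE 0.427, edgeR adjusted p = 0.156). In MLL-AF9 cells Cd36 was at 1.205 ± 0.726 FPKM with DOX and 0.9153 ± 0.793 FPKM with DMSO (0.22, limma adjusted p = 0.773). In MLL-AF10 cells it stood at log2 values of 1.055 ± 0.0103 with DOX and 1.069 ± 0.0124 with DMSO, and Lyz1 at 2.912 ± 0.008 with DOX and 2.884 ± 0.00388 with DMSO, both genes under the minimum of 3.32.

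Cd68 encodes macrosialin, a lysosomal glycoprotein used as a macrophage marker (chr11:69477715-69479655, mm9, minus strand). Jak1 null cells had 1017, 1015 and 1055 normalized counts, against 1279, 1365 and 1388 in floxed cells. The ranges were narrow and did not overlap, with a log2 fold change of −0.39 (SE 0.0443, edgeR adjusted p = 1.2e-08). In MLL-AF10 cells Cd68 went the other way, at log2 values of 8.686, 8.63 and 8.669 with DOX, against 8.444, 8.501 and 8.458 with DMSO (0.19, limma adjusted p = 0.000792). In MLL-AF9 cells it had 244.4, 308.7 and 344.5 FPKM with DOX, against 180.9, 198.5 and 232.2 FPKM with DMSO. All DOX libraries were higher, but the adjusted p was 0.0541 (limma, log2 fold change 0.54); without DOX replicate 1, the lowest DOX library, it was 0.0231, and over all alternatives 0.0231 to 0.208. With CALM-AF10 off Cd68 averaged 2326 ± 253 counts, against 2643 ± 265 with it on (−0.18, edgeR adjusted p = 0.274).

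Gpnmb encodes a transmembrane glycoprotein of lysosomes and melanosomes (chr6:48986517-49020928, mm9, plus strand). It rose in MLL-AF9 cells, to 361.3, 345.8 and 318.8 FPKM with DOX, against 219.7, 176.9 and 203.8 FPKM with DMSO (0.77, SE 0.1, limma adjusted p = 0.00385). It fell in Jak1 null cells, with 2619, 3144 and 3233 normalized counts, against 3238, 3777 and 3902 in floxed cells. The highest null library lay just under the lowest floxed one, and the log2 fold change was −0.28 (SE 0.0556, edgeR adjusted p = 9.05e-05). With CALM-AF10 off the counts were 3446, 7740 and 7570, against 5111, 9162 and 9514 with it on. Replicate 1 was again the lowest of each group and the groups overlapped (−0.35, SE 0.301, edgeR adjusted p = 0.531). In MLL-AF10 cells DOX replicate 1, at 9.424, stood above DOX replicates 2 and 3, at 9.012 and 9.015, and above the DMSO libraries at 9.314, 9.184 and 9.199. Gpnmb was not called there with all libraries (−0.08, limma adjusted p = 0.532) but fell without DOX replicate 1 (−0.22, adjusted p = 0.00276, and 0.00276 to 0.949 over the alternatives).

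**Figure D4:**
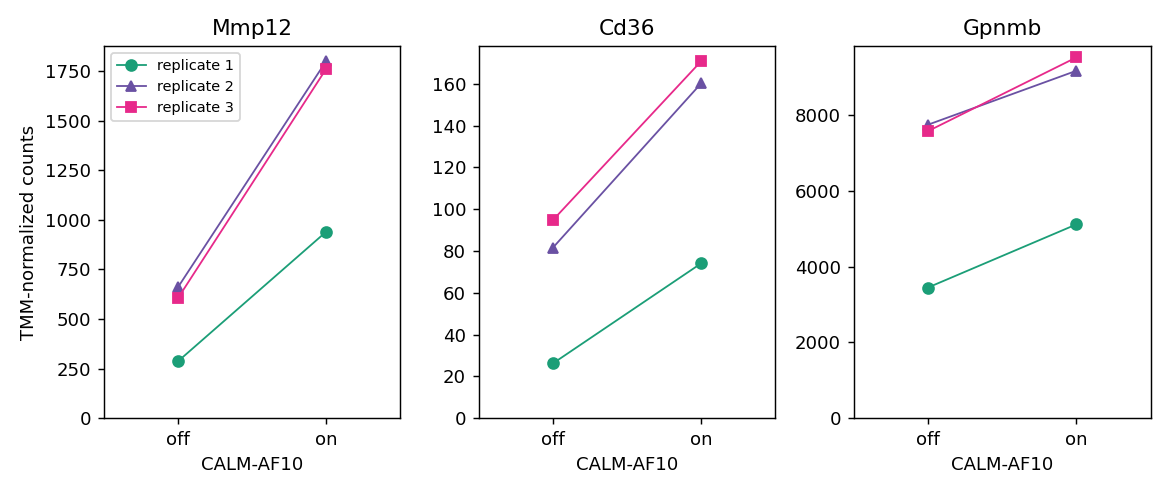
TMM-normalized counts (y axis, from 0) of Mmp12, Cd36 and Gpnmb with CALM-AF10 off and on, with lines joining libraries of the same replicate number (a number, not a stated pairing). Replicate 1 is lowest in each group for all 3 genes, and all 3 lines of each gene are lower in the off group.

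Mmp12 encodes macrophage metalloelastase (chr9:7344381-7369499, mm9, plus strand). With CALM-AF10 off it had 286.4, 659.5 and 604.4 normalized counts, against 940, 1800 and 1761 with it on, so that it fell to 0.344 times the on mean. The groups did not overlap, and the log2 fold change was −1.59 (SE 0.313, edgeR adjusted p = 0.0211). The call was lost without on replicate 2 (−1.44, adjusted p = 0.0892) and without on replicate 3 (−1.44, adjusted p = 0.0985); over the alternatives it ran from 3.89e-06 to 0.0985. Jak1 null cells had 278.7, 452.1 and 498.7 normalized counts of Mmp12, against 732.5, 883.3 and 837.2 in floxed cells. Every null library was lower (−0.99, SE 0.0994, edgeR adjusted p = 6.88e-10).

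In MLL-AF10 cells Mmp12 had log2 values of 6.798, 6.464 and 6.461 with DOX, against 6.996, 6.769 and 6.796 with DMSO. DOX replicate 1 overlapped the DMSO libraries, and the fall of 0.28 on the log2 scale (limma adjusted p = 0.0193) was not called without DOX replicate 2 (adjusted p = 0.103) or DOX replicate 3 (adjusted p = 0.0992). Its limma adjusted p over all alternatives was 1.14e-10 to 0.103, and the lowest came from the fit with a replicate block. Replicate 1 was the highest library of each group. In MLL-AF10 libraries of the same replicate number correlated, but no label states a pairing and the main fit does not use one. In MLL-AF9 cells it was higher, at 171.7, 166.6 and 187.7 FPKM with DOX, against 147.4, 123.6 and 131.1 FPKM with DMSO (0.39, SE 0.0907, limma adjusted p = 0.0349). The groups did not overlap, but only without DMSO replicate 1 did the call hold when a library was left out; otherwise the adjusted p was 0.0609 to 0.115, and 0.0328 to 0.29 over all alternatives. The authors' deposited table of genes lower with a fusion off lists Mmp12 for CALM-AF10 and for MLL-AF10, and under genes common to AF10 fusions only. It lists Cd36 and Gpnmb for CALM-AF10, and none of the 10 genes for MLL-AF9 or under genes common to all 3 fusions.

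The MLL-AF9 folds are those of FPKM as deposited. Between 74% and 92.4% of all FPKM in a library belonged to the small RNA entry Mir6236. Rescaling each library to the same sum without small RNA entries moved the median of all genes to −0.171. Of 1215 calls 30.9% were then higher, against 61.4% of 1281 as deposited. Relative to that shift the folds of the 10 genes were little changed, but Ly6c2 (0.28, adjusted p = 0.235) and Mmp12 (0.22, adjusted p = 0.29) were no longer called, and Lyz2, Msr1, Mpeg1 and Gpnmb stayed called in limma.

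RefSeq gives Mmp12 a pair of start sites, and both promoters are shown because Mmp12 was the only one of the 10 genes called lower in 3 comparisons. The words searched on both strands were TGANTCA (AP-1), GAGGAAGT (PU.1), TTGCNNAA (C/EBP), CATGTG (M-box, bound by the MiT factors) and CACGTG (E-box), which do not contain one another. They occur in 6.75%, 2.44%, 9.56%, 12.3% and 6.02% of 32851 windows of 250 bases, in that order. The upstream site, chr9:7344147-7344396 (GRCm38.p6, plus strand), holds PU.1 at −88 to −81 and C/EBP at −39 to −32. The downstream site, chr9:7347124-7347373, holds the M-box at −83 to −78 and AP-1 at −44 to −38.
Mmp12 upstream: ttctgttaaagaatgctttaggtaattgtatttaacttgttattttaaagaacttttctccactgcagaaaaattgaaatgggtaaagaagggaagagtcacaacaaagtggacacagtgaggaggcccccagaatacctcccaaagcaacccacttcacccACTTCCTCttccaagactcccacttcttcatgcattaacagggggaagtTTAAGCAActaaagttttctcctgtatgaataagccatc
Mmp12 downstream: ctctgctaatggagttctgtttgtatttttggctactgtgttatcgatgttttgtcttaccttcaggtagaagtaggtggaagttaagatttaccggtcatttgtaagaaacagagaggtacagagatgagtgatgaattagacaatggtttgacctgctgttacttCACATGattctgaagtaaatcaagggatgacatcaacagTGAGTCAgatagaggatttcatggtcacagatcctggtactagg

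Of the 9 genes with a promoter entry, AP-1 was found in 2 (Cd68 and Mmp12), PU.1 in 2 (Ly6c2 and Mmp12), C/EBP in 3 (Cd68, Lyz1 and Mmp12), the M-box in 2 (Mmp12 and Mrc1) and the E-box in 0. Cd36, Mpeg1, Lyz2 and Gpnmb held none of these words in their 250 bases. A match is a description of letters and not of binding.

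Levels per length set the genes in order. In MLL-AF9 DMSO libraries Lyz2 led with 4650 ± 712 FPKM, then Ly6c2 with 1190 ± 72.5 FPKM. Cd68 with 204 ± 26.1 and Gpnmb with 200 ± 21.6 FPKM did not differ beyond their spread. Mmp12 (134 ± 12.2) and Mpeg1 (107 ± 9.52) followed, then Msr1 at 16.1 ± 1.89 FPKM. Mrc1 (3.36 ± 0.396), Lyz1 (2.3 ± 1.93) and Cd36 (0.915 ± 0.793) closed the order, with Lyz1 within the spread of both neighbours. In normalized counts per kilobase of exon, Lyz2 led in CALM-AF10 on cells (30700 ± 2480) ahead of Ly6c2 (13000 ± 426), whereas in Jak1 floxed cells Ly6c2 (38100 ± 2500) stood ahead of Lyz2 (12400 ± 410). Mpeg1 was 3rd in CALM-AF10 on cells (2210 ± 123) and 5th in Jak1 floxed cells (230 ± 10.6). The exon lengths are those of the mm9 annotation.

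**Figure D5:**
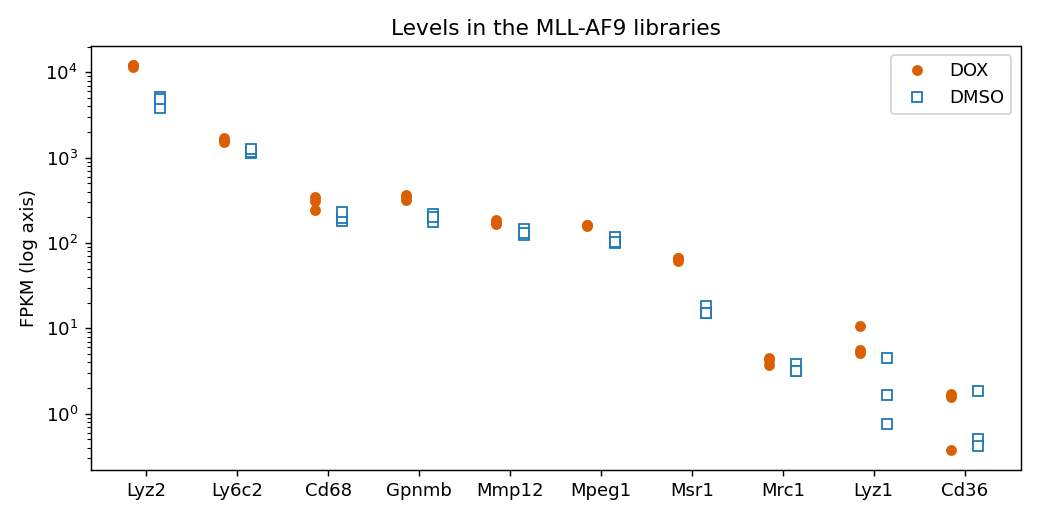
FPKM of each gene in the MLL-AF9 libraries (y axis, log scale), with DOX as filled circles on the left and DMSO as open squares on the right, ordered by the DMSO mean. Lyz2 lies above all others, and the DOX and DMSO points of Cd36 and Mrc1 overlap.

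A list of other monocyte and macrophage genes was counted beside the 10 genes. For comparison, 2.13% of all genes were called higher and 3.11% lower with CALM-AF10 off, and 10.6% and 9.17% with MLL-AF10 DOX. These shares were 7.23% and 4.54% with MLL-AF9 DOX, and 27.4% and 28.3% in Jak1 null cells. With CALM-AF10 off, 1 of 33 listed genes tested rose (Tyrobp, a signalling adaptor, 0.19). There 2 fell (F13a1, a coagulation factor of monocytes, −0.38, and the secreted Spp1, osteopontin, −1.03). With DOX in MLL-AF10 cells 13 of 30 rose and 6 fell, among them Tgfbi (0.95) and Spp1 (−0.86). With DOX in MLL-AF9 cells 16 of 30 rose and 0 fell, including the sialoadhesin gene Siglec1 (1.48) and Csf1r (0.66), the receptor of the macrophage growth factor. In Jak1 null cells 13 of 29 rose, led by Ms4a6c (2.11), and 11 fell, including Spp1 (−2.49), Cd14 (−1.46), the lipopolysaccharide co-receptor, and Itgam (−0.74), the CD11b integrin chain. The list's median was 0.03 with CALM-AF10 off, 0.11 with MLL-AF10 DOX, 0.61 with MLL-AF9 DOX and 0.09 in Jak1 null cells, where the medians of all genes were −0.003, 0.001, −0.016 and 0.008.

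Among 30 lysosome genes, to which the compartment of Cd68 belongs, 2 rose with CALM-AF10 off, 17 with MLL-AF10 DOX and 11 with MLL-AF9 DOX, and 0 fell in each of the 3. There were 10 higher and 9 lower in Jak1 null cells, near the shares of all genes called there (27.4% higher and 28.3% lower). Of all genes, 2.13% were called higher and 3.11% lower with CALM-AF10 off, 10.6% and 9.17% with MLL-AF10 DOX, and 7.23% and 4.54% with MLL-AF9 DOX. Psap, the precursor of lysosomal saposins, was called higher in each comparison, by 0.31 with CALM-AF10 off, 0.60 with MLL-AF10 DOX, 1.23 with MLL-AF9 DOX and 0.36 in Jak1 null cells. Of the antimicrobial genes beside lysozyme and Mpeg1, 12 of 13 rose and 0 fell with MLL-AF9 DOX, and 9 of 13 rose and 1 fell with MLL-AF10 DOX. With CALM-AF10 off 6 of 16 rose and 1 fell, and in Jak1 null cells 4 of 14 rose and 8 fell. The lactoferrin gene Ltf rose in all 4 comparisons (2.09 with CALM-AF10 off, 0.54 with MLL-AF10 DOX, 3.47 with MLL-AF9 DOX and 1.43 in Jak1 null cells).

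Some markers of other cells moved beside these genes. Of the neutrophil granule genes, 12 of 17 rose and 1 fell with CALM-AF10 off, where 2.13% of all genes were called higher and 3.11% lower. With MLL-AF10 DOX 14 of 18 rose and 0 fell (10.6% and 9.17% of all genes), and with MLL-AF9 DOX 14 of 21 rose and 2 fell (7.23% and 4.54%). Jak1 deletion went with 11 of 21 higher and 9 lower (27.4% and 28.3% of all genes), with Mpo, the myeloperoxidase gene, among the higher ones. The gene lists were chosen with earlier results of these data known, so these counts are descriptions. The neutrophil list shares genes with the antimicrobial list, among them Ngp, Ltf, S100a8, S100a9 and Chil3. It also shares Mmp8 with the list of metalloproteinases and their inhibitors. The counts of these lists are therefore not separate. Lyz2 is also made by neutrophils. The summed level of 8 mast cell and basophil markers was 554 to 620 CPM (counts scaled to library size) with CALM-AF10 off and 502 to 534 with it on, and 3 rose. In MLL-AF9 it was 5.31 to 8.81 FPKM with DOX and 7.43 to 9.87 FPKM with DMSO, with Cpa3 and Fcer1a at or near 0 and 0 of 2 tested called. The 11 dendritic cell markers summed to 81.1 to 98.6 FPKM with MLL-AF9 DOX and 27 to 50.5 FPKM with DMSO. Most of that sum was Cd74 (65.13 ± 8.87 FPKM with DOX and 23.26 ± 7.82 with DMSO). Only 4 of the 11 could be tested there, 2 rose, and Zbtb46 and Cd209a were at the lowest value in every library. The 11 markers summed to 64.9 to 67.6 CPM in Jak1 null and 100 to 104 CPM in floxed cells. Only 5 of the 11 were tested there and 2 fell, H2-Ab1 and Cd74. H2-Ab1 had 628.2 ± 19.7 normalized counts in null and 981.7 ± 5.74 in floxed cells. Cd74 had 134.5 ± 14.3 in null and 227.1 ± 21.4 in floxed cells. The 7 megakaryocyte markers, which include Pf4, summed to 2.85 to 4.49 CPM in Jak1 null and 13.6 to 16 CPM in floxed cells, and 3 of 3 tested fell. With CALM-AF10 off they summed to 318 to 335 CPM, against 379 to 384 CPM with it on. There 1 of 7 fell, the integrin gene Itga2b (7476 ± 335 normalized counts with it off and 8673 ± 325 with it on). The 5 eosinophil markers summed to 3.58 to 4.32 CPM in Jak1 null and 13.1 to 15.3 CPM in floxed cells, and 1 of 2 tested fell, the chemokine receptor gene Ccr3 (−6.02, edgeR adjusted p = 5.04e-17). The part of these cells in the results was not tested.

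The genes most like each of the 10 over the 24 libraries were found by Pearson's r of log2 levels scaled within each table, among 9706 genes tested in all 4. These values are descriptions, since libraries of a table share their contrast and normalization. Mpeg1 was most like Csf1r (r = 0.978), Myo1f (0.953) and Grn (0.949), and Lyz2 most like Psap (0.978), Ffar2 (0.967) and Fam105a (0.964). Mmp12 was most like Arg1 (0.925), Spp1 (0.922) and Csf1 (0.916), and Gpnmb most like Pf4 (0.891), Sdc3 (0.889) and Ccl2 (0.876). Cd68 was nearest to Dab2 (0.926), Mrc1 to Scarb2 (0.889), Msr1 to Aoah (0.887) and Ly6c2 to Dhrs1 (0.839). Among the 10 genes themselves, r was 0.889 between Mpeg1 and Lyz2, 0.875 between Gpnmb and Mmp12, 0.816 between Mrc1 and Lyz2, and −0.412 between Lyz2 and Mmp12. The other gene pairs, among the 8 genes tested in all 4 tables, lay between these.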

How the data were processed

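Groups follow the library titles, and the Jak1 columns named DMSO were taken as floxed. For CALM-AF10 and Jak1 the authors deposited whole-number counts (the Jak1 table is called FPKM in its name, but its values are whole counts), normalized log2 values for MLL-AF10 and FPKM for MLL-AF9. Bowtie 0.12.2 and mm9 are named in the submitters' processing notes, and no source used here names the counting tool. Counts were tested with edgeR 4.0.16 (R 4.3.3; quasi-likelihood test, filterByExpr, TMM). Log2 values with a mean of at least 3.32 (log2 of 10), and log2(FPKM + 1) for a mean of at least 1 FPKM, went into limma 3.58.1 (eBayes, with trend). P-values were adjusted by Benjamini-Hochberg over all genes of a table, with a threshold of 0.05. Each test was tried on simulated data.

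The members and the 19 gene lists were chosen with earlier results of these data known. All 10 genes are named, and up to 4 called genes of a list with the smallest adjusted p were eligible to be named. In MLL-AF10, deviations of libraries with the same replicate number correlated (0.397, 0.199 and 0.194, all over 0.1). The numbers may therefore pair the libraries, as read from the data only, since no label states a pairing. The main MLL-AF10 fit did not use this pairing, and the fit with a replicate block is given among the alternatives. In the 2 count tables no libraries of a group agreed within sampling noise; the MLL tables hold no counts for that check. Alternatives were DESeq2 1.42.0, other scalings, filters and pseudocounts, a replicate block, and leaving out each library. Genes with symbols turned into dates (27, 26 and 27 in 3 tables) were tested but not named. Promoters came from RefSeq on GRCm38.p6, and gene positions from an mm9 annotation.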

Additional observations from a re-analysis of the deposited data

Results flagged for a closer look

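The Mmp12 fold change had opposite signs in 2 of the inducible models, taken as off against on and as DOX against DMSO. The library titles do not say whether DOX goes with the fusion off in MLL-AF9 cells. With CALM-AF10 off its log2 fold change was −1.59 and every off library was below every on library. With DOX in MLL-AF9 cells it was 0.39 and every DOX library was above every DMSO library. That MLL-AF9 call was lost after rescaling without small RNA entries (0.22, limma adjusted p = 0.29), with a replicate block (adjusted p = 0.0664) and on leaving out any 1 library but DMSO replicate 1 (adjusted p = 0.0609 to 0.115), and over the alternatives its adjusted p ran from 0.0328 to 0.29. The CALM-AF10 call was lost without on replicate 2 or on replicate 3 (edgeR adjusted p = 0.0892 and 0.0985; 3.89e-06 to 0.0985 over the alternatives). The tables were normalized separately, and the difference between the models was not tested.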

How the results depend on the processing

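For the single genes, 422 alternative values were computed for 38 results: 381 kept direction and side of the threshold, 13 became called, 26 were no longer called and 2 changed sign (Ly6c2 in Jak1, −0.025 and −0.035, with −0.035 to 0.075 on leaving out 1 library, not called in any setting). With CALM-AF10 off, 3 of the 10 genes and 648 genes in all were called. DESeq2 called 5 of the 10, and a fit with a replicate block 7 of the 10 and 1048 genes; the block added Cd36, Gpnmb, Mpeg1 and Ly6c2. There the replicate numbers failed the check for pairing, which needed every correlation to be over 0.1 (0.315, 0.163 and 0.018). Whether the libraries are paired is therefore not known, and the block was kept as an alternative. Leaving out 1 library gave 1 to 4 of the 10 and 146 to 944 genes (146 without on replicate 2, 163 without on 3, 253 without off 2, 343 without on 1). In MLL-AF10 (2089 genes) leaving out 1 library gave 1307 to 2396 genes (1307 without DOX 2, 1311 without DOX 3), and the block called 3102 genes and changed no call among the 10. In MLL-AF9 (1281 genes) the block gave 781 genes and no longer called Ly6c2 and Mmp12 but called Cd68, with correlations of 0.02, −0.007 and −0.007. Leaving out 1 library there gave 648 to 1036 genes (764, 648 and 683 without DMSO 1, 2 and 3). The difference in Lyz1 share in MLL-AF9 (0.01 percentage points) ran from −0.00742 to 0.0306 when 1 library was left out, and was −0.00441 without DOX replicate 2. In Jak1 the 9 calls stayed 9 under every alternative run, and the block changed none. The causes of these changes were not tested.

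Some values rested on few reads: over both count tables Lyz1 had 10 to 90 and Cd36 13 to 240 raw counts per library, and Mrc1 had 14 to 84 in the Jak1 table; the depth of the MLL tables is unknown.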

Other observations

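Gene groups related to the 10 genes were counted in each comparison, and no difference between experiments was tested. The share of all genes that passed was 2.13% upward and 3.11% downward with CALM-AF10 off, 10.6% and 9.17% with MLL-AF10 DOX, 7.23% and 4.54% with MLL-AF9 DOX, and 27.4% and 28.3% in Jak1 null cells. Of the metalloproteinases and their inhibitors other than Mmp12, 7 of 13 rose and 0 fell with MLL-AF9 DOX, with the gelatinase gene Mmp9 higher by 2.14 on the log2 scale. With CALM-AF10 off 0 of 14 rose and 3 fell, namely Timp3 (−0.33), Mmp8 (−0.60) and Adam17 (−0.20). In Jak1 null cells 4 of 13 rose, with Mmp8, the neutrophil collagenase, higher by 1.68, and 7 fell, with Adam8 lower (−1.70). In MLL-AF10 2 of 9 rose and 3 fell with DOX. Lipid genes of the PPAR and LXR receptors, which also control Cd36, gave 3 higher and 7 lower of 13 in Jak1 null cells. Abca1 and Abcg1, cholesterol exporters, were lower by log2 fold changes of −2.86 and −1.50, and Plin2, a lipid droplet coat gene, by −0.95 (edgeR). With CALM-AF10 off 0 of 14 rose and 1 fell (Abca1, −0.43). With MLL-AF10 DOX 5 of 13 rose and 0 fell, Abcg1 among the higher ones (0.30). With MLL-AF9 DOX 2 of 13 rose, the lipoprotein lipase gene Lpl (1.51) and Abcg1 (1.07), and 1 fell, the lipase inhibitor gene Angptl4 (−0.86).

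Among scavenger and lipoprotein receptors besides Msr1 and Cd36, 0 of 10 rose and 1 fell with CALM-AF10 off (Vldlr, −0.55). With MLL-AF10 DOX 6 of 8 rose and 0 fell, with MLL-AF9 DOX 2 of 8 rose (Lrp1, 0.78, and Olr1, 0.82) and 0 fell, and in Jak1 null cells 5 of 9 rose and 2 fell, with Cd163, the haemoglobin scavenger receptor, higher by 1.93. Cd163 rested on few reads, at 20.74 ± 4.02 normalized counts in null and 5.432 ± 1.79 in floxed cells. Of the mannose receptor family and myeloid lectins, 3 of 12 rose and 1 fell (Clec4e, −0.28) with CALM-AF10 off, 4 of 11 rose and 0 fell with MLL-AF10 DOX, and 8 of 11 rose and 0 fell with MLL-AF9 DOX. In Jak1 null cells 4 of 12 rose and 6 fell, including Clec10a (−2.68) and Clec5a (−0.48). Clec4a2 rose in all 4 comparisons, by 0.44 with CALM-AF10 off, 0.40 and 1.47 with MLL-AF10 and MLL-AF9 DOX, and 1.45 in Jak1 null cells. Of the monocyte and macrophage transcription factors, 8 of 24 rose and 1 fell with CALM-AF10 off, 12 of 23 rose and 1 fell with MLL-AF10 DOX, and 10 of 24 rose and 1 fell with MLL-AF9 DOX. Of 23 tested in Jak1 null cells 6 rose, including Irf8 (1.13), and 9 fell, including Bhlhe40 (−3.17) and Atf3 (−2.07). Of all genes, 2.13% were called higher and 3.11% lower with CALM-AF10 off, and 10.6% and 9.17% with MLL-AF10 DOX. These shares were 7.23% and 4.54% with MLL-AF9 DOX, and 27.4% and 28.3% in Jak1 null cells. The rises among the factors in Jak1 null cells lay near that share.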
